A study of Mus musculus with 48 samples.

Results

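The RNAs described here are 42 noncoding genes known only by a Gm number, the provisional mouse symbol of a gene model without a functional name, whose level was at least about 8 times higher in mouse embryonic stem cells that had lost the RNA helicase MTREX. They were chosen on those measurements: the GENCODE type had to be lincRNA, lncRNA, antisense, processed_transcript, sense_intronic or bidirectional_promoter_lncRNA, the mean level in the *Mtrex*-KO libraries at least 1 CPM (read counts scaled to a library total, of which reads in genes were 72.1 to 92.1%), and log2((mean *Mtrex*-KO CPM + 0.25)/(mean *Mtrex* WT CPM + 0.25)) at least 3. Of 6801 Gm-numbered genes of these 6 types, 392 reached 1 CPM in *Mtrex*-KO and 42 of those, 10.7%, met the ratio, where 2.27% of the 13602 genes of any kind at that level did. The members' values in the *Mtrex* libraries are therefore a description, and tests of the members are given only for comparisons between other libraries. The *Mtrex* libraries still belong to the fit without CHX, and so enter its filter and its estimate of the spread.

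The series examined how the nuclear proteins NRDE2 and CCDC174 and the helicase MTREX shape the transcriptome, and 28 RNA-seq and 4 Ribo-seq libraries were used here, 2 per group. All were male embryonic stem cells of a mixed 129 and C57BL/6 background that carry an inducible Cre-ERT2 recombinase, derived from picked clones and grown in serum with LIF and 2 kinase inhibitors. *Mtrex*-KO cells (floxed *Mtrex*, with endogenous *Nrde2* carrying a 3A tag) had received 100 nM 4-hydroxytamoxifen (4OHT) for 3 days, and *Nrde2*-KO cells (floxed *Nrde2*) the same dose for 4 days, while their WT controls were the same cells without 4OHT. Nrde2d200 cells lack an N-terminal stretch of NRDE2, Nrde2-D174R cells carry a point mutation, and both are homozygous, untreated lines compared with *Nrde2* WT. CCDC174 fused to an FKBP degron was depleted with 500 nM dTAG-13 for 24 h, and its WT is the same line without dTAG-13. A second *Nrde2* experiment and the *Ccdc174* experiment were also run with cycloheximide (CHX, 0.1 mg/ml for 4 h), which stops translation. The labels do not say that replicates came from separate cultures, so p-values measure the spread between these libraries, which may be technical.

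MTREX is the helicase that feeds RNA into the nuclear exosome. It works with adaptor complexes, among them NEXT, which handles short unadenylated transcripts such as those made upstream of promoters, and PAXT, which handles adenylated nuclear RNA. Many mammalian promoters fire in both directions, and the RNA that runs away from the coding gene is usually destroyed in the nucleus by this route. NRDE2 binds MTREX, and CCDC174 is a nuclear protein linked to the exon junction complex.

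Of the 42 genes, 18 are annotated as antisense, 17 as lincRNA, 4 as bidirectional_promoter_lncRNA and 3 as processed_transcript. Their position relative to coding genes was read from GENCODE M21 on GRCm38. The annotated start of 20 of them (47.6%) lies within 1 kb of the start of a coding gene on the other strand, here called a head-to-head pair. Another 9 (21.4%) lie antisense to a coding gene elsewhere, 2 begin within 10 kb downstream of a coding gene, and 11 have none of these neighbours. Among the other 350 Gm-numbered genes at 1 CPM or more in *Mtrex*-KO, 139 (39.7%) were head-to-head and 55 (15.7%) antisense.

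Among 19 of the head-to-head pairs, 11 have the coding start upstream of the RNA's start, and in the others the transcripts overlap at their starts. Where the starts face away from each other, the arrangement is easiest to see in the DNA between them. The windows below are written along the strand of the Gm-numbered RNA, with the bases between both starts in capitals and 20 lower-case bases on each side, and they belong to Gm26766 and Zfp706 (GRCm38, chr15:37007383-37007542, plus strand), Gm49086 and Zfp219 (chr14:52019976-52020095, plus strand), Gm16196 and Srsf3 (chr17:29032549-29032647, minus strand) and Gm10244 and Mkrn1 (chr6:39419757-39419906, plus strand), the pairs with the highest *Mtrex*-KO level among those whose starts face away from each other.
Gm26766/Zfp706: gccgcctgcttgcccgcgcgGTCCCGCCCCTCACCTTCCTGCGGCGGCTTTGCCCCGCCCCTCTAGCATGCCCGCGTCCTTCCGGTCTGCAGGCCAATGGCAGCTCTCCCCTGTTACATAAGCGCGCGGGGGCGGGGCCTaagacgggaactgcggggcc
Gm49086/Zfp219: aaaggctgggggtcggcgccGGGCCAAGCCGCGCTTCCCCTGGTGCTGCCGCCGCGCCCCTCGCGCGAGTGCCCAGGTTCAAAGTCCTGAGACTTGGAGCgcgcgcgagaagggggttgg
Gm16196/Srsf3: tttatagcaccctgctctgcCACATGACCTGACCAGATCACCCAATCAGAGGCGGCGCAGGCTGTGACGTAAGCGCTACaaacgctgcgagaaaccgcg
Gm10244/Mkrn1: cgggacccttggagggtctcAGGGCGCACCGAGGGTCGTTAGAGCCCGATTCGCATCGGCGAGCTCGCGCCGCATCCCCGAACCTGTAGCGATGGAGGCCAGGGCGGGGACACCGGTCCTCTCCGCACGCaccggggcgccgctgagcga
The starts are separated by 120, 80, 59 and 110 bases, which hold 11, 8, 4 and 16 CG dinucleotides. From 250 bases before to 50 after the start, the 41 members whose sequence was read had a median of 15 CG dinucleotides and 60.7% G or C. The corresponding medians were 8 and 52.7% for 342 of the remaining Gm-numbered genes, and 19 and 59.7% for 11633 coding genes at 1 CPM or more in *Mtrex*-KO. The letters TATAAA at 40 to 11 bases before the start were found in none of the 41 and in 1.03% of the coding genes.

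The annotated 3′ ends show whether a cleavage and polyadenylation hexamer is written there. The last 50 bases of the 6 members with the highest *Mtrex*-KO level follow, in transcript direction with AATAAA in capitals, for Gm37305 (chr3:65961987-65962036, plus), Gm49767 (chr16:31284424-31284473, minus), Gm26766 (chr15:37044051-37044100, plus), Gm17690 (chr3:96167464-96167513, minus), Gm38102 (chr5:123137646-123137695, plus) and Gm11532 (chr11:97020508-97020557, minus).
Gm37305: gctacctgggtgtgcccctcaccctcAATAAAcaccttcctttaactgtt
Gm49767: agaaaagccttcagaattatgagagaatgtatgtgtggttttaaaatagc
Gm26766: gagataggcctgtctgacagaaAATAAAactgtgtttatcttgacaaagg
Gm17690: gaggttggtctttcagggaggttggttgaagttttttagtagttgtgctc
Gm38102: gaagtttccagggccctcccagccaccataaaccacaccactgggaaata
Gm11532: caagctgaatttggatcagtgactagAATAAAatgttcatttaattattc
Gm37305, Gm26766 and Gm11532 hold the hexamer and Gm49767, Gm17690 and Gm38102 do not. AATAAA or ATTAAA was present in this window in 20 of 41 members (48.8%), in 52.9% of the remaining Gm-numbered genes and in 78.1% of the coding genes. Within the first 1000 bases after the start, on the transcript strand, AATAAA occurred in 17 of 41 (41.5%), in 34.2% of the remaining Gm-numbered genes and in 18.4% of coding genes, and the splice donor core GGTAAG in 5 of 41 (12.2%), 22.8% and 26.2%. The members have few introns: 12 consist of 1 exon and 18 of 2. The annotation holds 60 introns in 29 of the members, of which 57 begin with GT, and their donors matched the consensus CAGGTAAGT at a median of 6 of 9 positions, as did those of the remaining Gm-numbered genes and of coding genes.

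In *Mtrex* WT cells the 42 RNAs were low, with 0 to 224 reads over both libraries. Their mean level ran from 0 to 3.09 CPM with a median of 0.271, which is a median of 19.5 reads over both libraries, since 1 read was worth 0.0238 to 0.0304 CPM. In *Mtrex*-KO it ran from 1.93 to 39.5 CPM with a median of 5.36, or 419 reads. Summed over the members, the level was 17.4 and 15.4 CPM in the WT libraries and 282 and 338 CPM in the *Mtrex*-KO libraries. The log2 ratio had a median of 3.41 and was 4 or more for 5 RNAs. All 42 had both *Mtrex*-KO libraries above both WT libraries, as the choice nearly forces, and 28.4% of all genes at 1 CPM in *Mtrex*-KO did too.

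**Figure D1:**
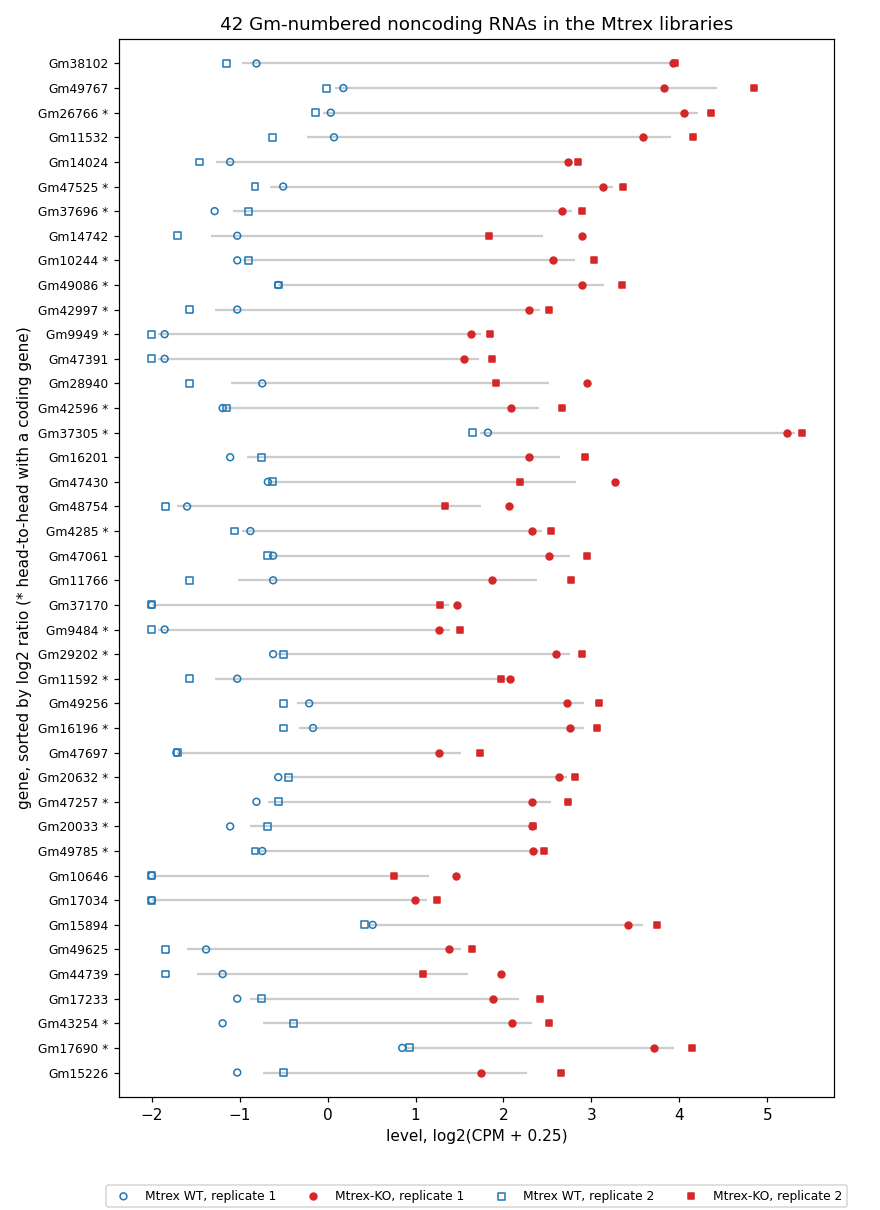
Level of each of the 42 RNAs as log2(CPM + 0.25) on the horizontal axis, genes in rows sorted by log2 ratio, with blue open symbols for the 2 *Mtrex* WT libraries and red filled symbols for the 2 *Mtrex*-KO libraries. An asterisk marks the 20 head-to-head genes, and in every row the red symbols lie to the right of the blue ones.

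Gm38102, a lincRNA at chr5:123133939-123137695 on the plus strand, had the largest ratio. It measured 0.321 and 0.200 CPM in the WT libraries and 14.9 and 15.2 CPM in *Mtrex*-KO, a log2 ratio of 4.91. Gm49767 (chr16:31284424-31291896, minus strand) followed with 0.882 and 0.742 CPM in WT and 13.9 and 28.6 CPM in *Mtrex*-KO, a log2 ratio of 4.34. The *Mtrex*-KO libraries differed about 2-fold from each other for Gm49767 and hardly for Gm38102.

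Gm26766, which runs from the Zfp706 promoter over chr15:37007523-37044100, went from 0.775 and 0.657 CPM to 16.4 and 20.2 CPM. Gm11532 (chr11:97020508-97026248, minus strand, antisense to Sp6) measured 0.802 and 0.40 CPM in WT against 11.8 and 17.6 CPM. Gm14024 (chr2:129246376-129268526, plus strand) lies antisense to Ckap2l, which encodes a mitotic spindle protein, and measured 0.214 and 0.114 CPM against 6.39 and 6.93 CPM. These are the RNAs with a log2 ratio of 4 or more.

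The highest level belonged to Gm37305 (chr3:65957758-65962036, plus strand), head-to-head with the cyclin gene Ccnl1, with 3.29 and 2.88 CPM in WT and 37.2 and 41.8 CPM in *Mtrex*-KO. Per kilobase of annotated exon the order was different. Gm29202, antisense to the start of Igf2bp1, led with 15.4 CPM per kb in *Mtrex*-KO, then Gm49785 with 14.9, Gm14742 with 13.7, Gm47525 with 11.99 and Gm14024 with 11.9 CPM per kb. Each of these is shorter than the members' median of 1946 exon bases, and Gm37305 reached 9.23 CPM per kb.

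No read was counted in either WT library for 3 members. Against 3 reads over the group, the level in *Mtrex*-KO was at least 57.2-fold higher for Gm37170, at least 48.7-fold for Gm10646 and at least 46.2-fold for Gm17034. These RNAs stayed low in *Mtrex*-KO too, at 2.52 and 2.18 CPM for Gm37170, 2.49 and 1.44 CPM for Gm10646 and 1.73 and 2.13 CPM for Gm17034. The threshold ran through a continuous range: Gm17690 (3.05) and Gm15226 (3.01) lay just inside it, and Gm32585 (2.99) and Gm14261 (2.98) just outside. The remaining 350 Gm-numbered genes had a median log2 ratio of 1.76, and 309 of them (88.3%) were higher in *Mtrex*-KO.

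The coding partners of the head-to-head RNAs had ratios far below those of the RNAs in most pairs. Over 19 of the partner genes, the log2 ratio of *Mtrex*-KO to WT had a median of −0.05, with 9 above 0, 3 at 1 or more and 1, the inorganic pyrophosphatase gene Ppa2, at −1.07. All genes at 1 CPM or more in *Mtrex*-KO had a median of −0.27 on this scale, and with CPM divided by median-of-ratios factors the medians were 0.31 for the partners, 12 of them above 0, and 0.09 for all genes. Zfp706 measured 109.8 CPM in WT and 124 CPM in *Mtrex*-KO (0.18), Mthfd1, a folate enzyme and the partner of Gm47525, 467 and 348 CPM (−0.42), Ccnl1 52.0 and 66.7 CPM (0.36), Srsf3, a splicing factor, 265 and 183 CPM (−0.54), and the splicing factor gene Sf3b4, partner of Gm17690, 13.2 and 15.6 CPM (0.24). The 3 partners with a log2 ratio of 1 or more were Hist2h3c2 (2.35), the small GTPase gene Rap2b (2.18, from 21.9 to 100.0 CPM) and Bmp2k (1.01). The authors counted reads by strand, so the RNA and its partner are separate measurements.

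**Figure D2:**
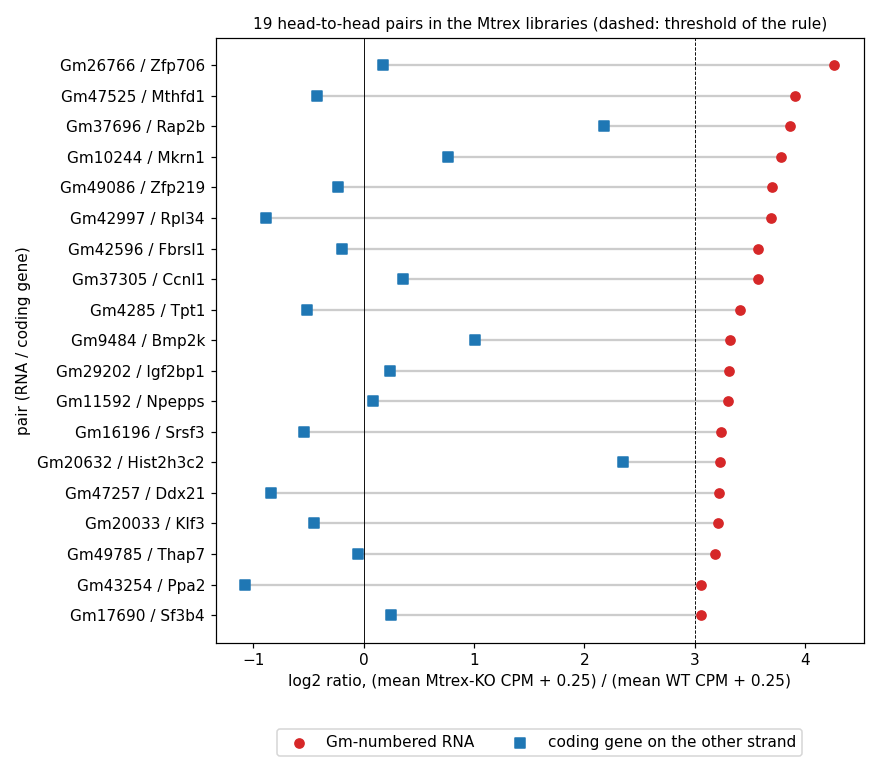
Log2 ratio of *Mtrex*-KO to WT on the horizontal axis for 19 of the head-to-head pairs in rows, with red circles for the Gm-numbered RNA and blue squares for the coding gene on the other strand; the dashed line is the threshold of the choice. The circles lie above the dashed line by construction, and the squares spread from −1.07 to 2.35.

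The *Mtrex*-KO libraries themselves stood apart, and these values belong beside every level above. *Mtrex* mRNA was 116 and 112 CPM in WT and 31.6 and 34.4 CPM in *Mtrex*-KO. Of 18 listed markers of the 2-cell-like state, in which stem cells express genes of the 2-cell embryo, 16 were found and 15 tested. All 15 were higher in *Mtrex*-KO by limma (adjusted p < 0.01 and log2 fold change above 1, as 19.3% of all genes were, while 10.3% were lower). Such markers can pass the filter (0.5 CPM in at least 2 libraries) through the *Mtrex*-KO libraries, in which they are high, so nothing is read from that share. Also higher were 4 of 6 tested trophectoderm markers, Cdx2, Gata3, Krt8 and Krt18, and 2 of 6 tested primitive endoderm markers, Gata6 and Dab2. The summed 2-cell-like markers measured 6.51 to 18.1 CPM in WT, 320 CPM in *Mtrex*-KO replicate 1 and 104 CPM in replicate 2. The summed trophectoderm markers measured 85.9 to 122 CPM in WT and 342 to 427 CPM in *Mtrex*-KO. Nanog and Prdm14 were lower among 10 pluripotency markers. The part of these cell states in the levels of the 42 RNAs was not tested.

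On CPM as deposited, 8 members were higher in *Mtrex*-KO replicate 1 than in replicate 2. They were Gm14742, Gm28940, Gm47430, Gm48754, Gm37170, Gm11592, Gm10646 and Gm44739, which is 19.05% of the list, against 21.02% of all 13602 genes. The median-of-ratios factors of replicates 1 and 2 were 0.729 and 0.871, so which members are higher in replicate 1 depends on the scale. The largest differences were those of Gm14742, with 7.15 and 3.31 CPM, Gm47430, with 9.38 and 4.31 CPM, and Gm28940, with 7.46 and 3.54 CPM. All 16 of the 2-cell-like markers found in the table were higher in replicate 1 on CPM as deposited.

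The genes of the decay route were fixed as lists of exosome subunits, adaptors and Integrator subunits. No exosome subunit was higher in *Mtrex*-KO among 13 tested, and Exosc7 (log2 fold change −1.25) and Exosc8 (−1.09), both of the exosome ring, were lower. Of 17 adaptors and cofactors, Zfc3h1, the zinc finger scaffold of PAXT, was higher (1.23, from 82.9 and 79.5 CPM to 135 and 160 CPM), and only Mtrex itself was lower (−1.41). Ints11, the endonuclease of Integrator, was lower (−1.01) among 16 subunits. The median log2 fold change was −0.40 for the exosome list, −0.07 for the adaptors and −0.20 for Integrator, against 0.04 over all genes.

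Outside the *Mtrex*-KO group the 42 RNAs stayed low in all other 26 RNA-seq libraries. Their summed level was 13.3 to 35.5 CPM there, against at least 282 CPM in *Mtrex*-KO. For 41 of them the lower *Mtrex*-KO library exceeded each of the other 26 libraries, which is descriptive since the choice used the *Mtrex*-KO level. How many of all genes do so was not counted, so nothing is read from this number. The exception among the members was Gm16201, with 4.66 CPM in *Mtrex*-KO replicate 1 and 4.79 CPM in a CHX-treated *Nrde2*-KO library. Averaged over replicates, the sum was 14.8 CPM in *Nrde2* WT and 22.99 CPM in *Nrde2*-KO of the first experiment, 18.4 CPM in Nrde2d200, 14.3 CPM in Nrde2-D174R, 15.1 and 22.7 CPM in WT and *Nrde2*-KO of the second experiment, and 15.8 and 14.5 CPM in *Ccdc174* WT and dTAG. Apart from *Mtrex*-KO, the *Nrde2*-KO groups were the highest of those without CHX.

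Most of the 42 RNAs were not called after loss of NRDE2, a partner of MTREX. The median member had 17.5 reads over both *Nrde2* WT libraries of the first experiment, so a change of a few reads was not detectable. In the first experiment 2 of 42 (4.76%) were higher by limma on log2(CPM + 0.25) (adjusted p < 0.01 and log2 fold change above 1), against 2.97% of the 17061 genes tested, and none was lower (0 at an unadjusted p under 0.05, and 0 by edgeR and DESeq2), against 1.9%. Here edgeR and DESeq2 each called 3 higher. In the second experiment 4 (9.52%) were higher, against 2.78%, and again none was lower by these 3 tools or at an unadjusted p under 0.05, against 2.17%. There edgeR and DESeq2 each called 4 higher. From 0.25 CPM or less, a fall to 0 cannot pass a log2 fold change of −1 once 0.25 CPM is added. The members' median was 0.247 CPM in WT of the first experiment and 0.263 CPM in the second. Nothing is therefore read from the absence of lower calls by limma. Over the members, the median log2 fold change was 0.24 and 0.21, where the median of all genes was 0.01 and 0.02. All 42 passed the filter on low values through the *Mtrex*-KO libraries, which belong to the same fit, so nothing is read from any share of calls here. In the compared libraries alone, 13 members passed in the first experiment and 15 in the second. Both experiments share no library, and 25 of 42 members (59.5%) had a log2 fold change above 0 in both, as did 41.1% of all genes. Called in both were 2 members (4.76%), Gm28940 and Gm14742, against 1.59% of all genes.

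**Figure D3:**
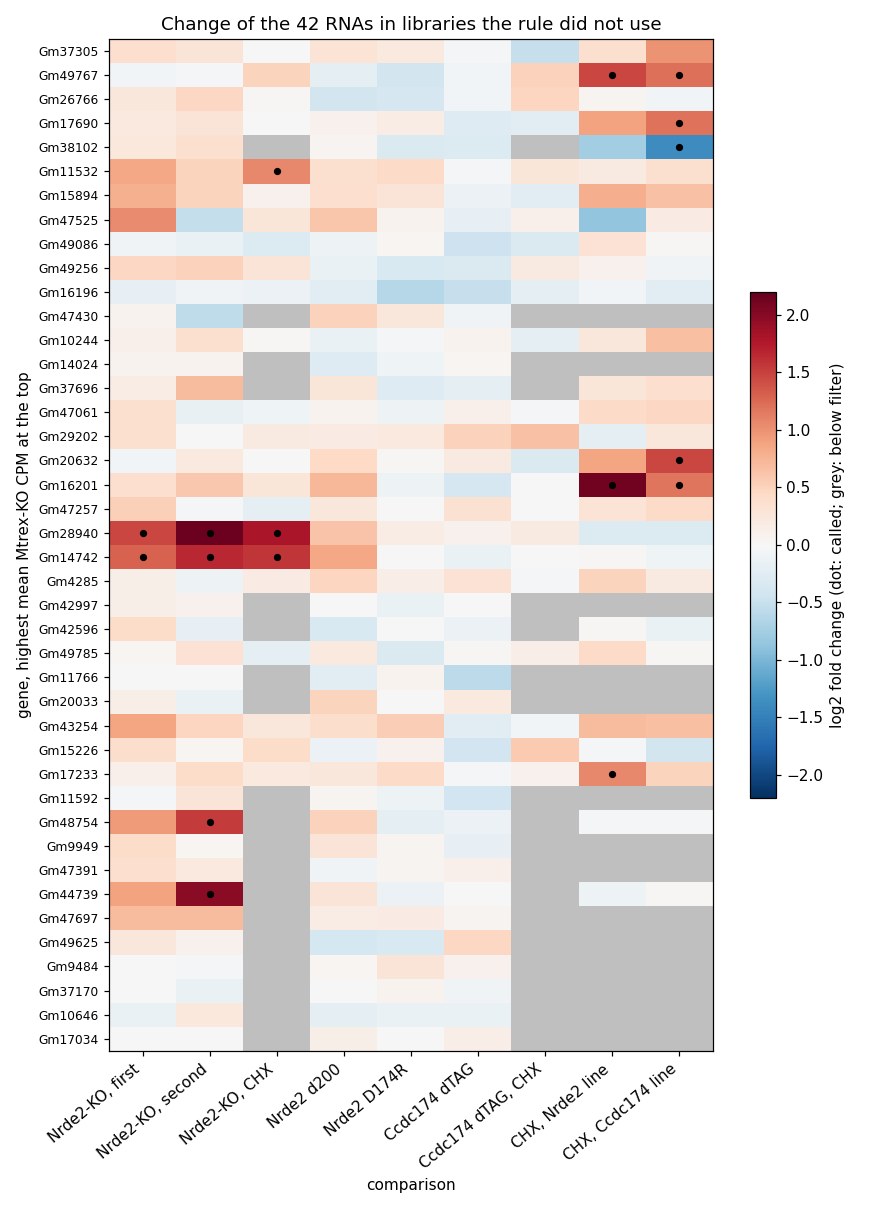
Log2 fold change of each of the 42 RNAs (rows, highest *Mtrex*-KO level at the top) in the comparisons of libraries that the choice did not use (columns), red for higher and blue for lower, with a dot where the change was called and grey where the RNA was below the filter. The dots in the *Nrde2*-KO columns fall on Gm28940, Gm14742, Gm44739, Gm48754 and Gm11532. The columns of Nrde2d200, Nrde2-D174R and *Ccdc174*-dTAG, each compared with WT, have none.

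Gm28940, antisense to Rhbdd1 at chr1:82392493-82402746 on the minus strand, had the largest log2 fold change in both experiments on the log2(CPM + 0.25) scale. It measured 0.061 and 0.026 CPM in *Nrde2* WT and 0.736 and 0.513 CPM in *Nrde2*-KO of the first experiment, and rose by 1.47 on the log2(CPM + 0.25) scale (SE 0.35, limma adjusted p = 0.00424). In the second experiment it measured 0.083 and 0.166 CPM in WT and 1.58 and 1.34 CPM in *Nrde2*-KO, a rise of 2.16 (SE 0.35, limma adjusted p = 0.000168). The added 0.25 CPM understates such changes: in reads, 3 against 48 gave a ratio of 14.7 (95% exact interval 4.74 to 73.8) and 9 against 102 a ratio of 11.6 (5.89 to 26.2), intervals that cover counting error only. In reads the order was different, with ratios of 31.2 (5.24 to 1270) for Gm14742 in the first experiment, where WT had 1 read, and 22.2 (7.28 to 111) for Gm44739 and 14.7 (4.71 to 74.2) for Gm48754 in the second, and these intervals overlap.

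Gm14742, a short lincRNA at chrX:77802351-77803280 on the minus strand, measured 0 and 0.026 CPM in *Nrde2* WT and 0.526 and 0.359 CPM in *Nrde2*-KO, and rose by 1.30 (SE 0.32, limma adjusted p = 0.00559). In the second experiment it went from 0.055 and 0.111 CPM to 0.758 and 0.884 CPM and rose by 1.66 (SE 0.32, limma adjusted p = 0.000851). The groups did not overlap in either experiment, but the share of all genes without overlap was not counted.

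Gm44739 (chr7:73676880-73678305, minus strand) and Gm48754 (chr13:17932386-17938434, plus strand, antisense to the GTPase gene Rala) passed the test in the second experiment. Gm44739 measured 0.028 and 0.055 CPM in WT and 1.15 and 0.724 CPM in *Nrde2*-KO, a rise of 1.98 (SE 0.32, limma adjusted p = 0.000154), and Gm48754 0.055 and 0.028 CPM against 0.667 and 0.563 CPM, a rise of 1.55 (SE 0.28, limma adjusted p = 0.000469). In the first experiment their log2 fold changes were 0.89 (limma adjusted p = 0.0432) and 0.94 (limma adjusted p = 0.018). Both *Nrde2*-KO libraries lay above both WT libraries for each of them in both experiments. The share of all genes with such a separation was not counted, so nothing is read from it.

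These 4 RNAs were at their highest in *Mtrex*-KO, as the choice nearly forces, and measured 3.54 to 7.46 CPM (Gm28940), 3.31 to 7.15 CPM (Gm14742), 1.87 to 3.68 CPM (Gm44739) and 2.27 to 3.92 CPM (Gm48754) there. All 4 are among the 8 members that were higher in *Mtrex*-KO replicate 1 on CPM as deposited. Leaving out any 1 of the 4 libraries of the first experiment left 0 or 1 call, with log2 fold changes of 1.27 to 1.66 for Gm28940 and 1.12 to 1.47 for Gm14742.

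The 4 RNAs share a stretch of sequence at their starts. It was found by comparing the donors of the responding genes, so it was looked for after their values were known. The window holds the last 60 bases of the first exon of Gm28940 and the first 30 of the intron, and the best match to it, from 300 bases before to 1000 after the annotated start, is given for each of the others with the 9 donor letters in capitals: Gm28940 (chr1:82402602-82402691, minus), Gm44739 (chr7:73678269-73678358, minus), Gm48754 (chr13:17932441-17932530, plus) and Gm14742 (chrX:77803138-77803227, minus), all on GRCm38.
Gm28940: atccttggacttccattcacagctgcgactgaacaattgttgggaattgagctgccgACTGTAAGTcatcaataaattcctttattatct
Gm44739: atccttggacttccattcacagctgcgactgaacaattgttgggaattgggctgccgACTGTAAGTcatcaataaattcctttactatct
Gm48754: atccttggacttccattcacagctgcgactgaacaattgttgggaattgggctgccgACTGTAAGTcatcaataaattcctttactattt
Gm14742: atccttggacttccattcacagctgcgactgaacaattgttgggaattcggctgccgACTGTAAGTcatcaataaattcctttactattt
The windows of Gm44739, Gm48754 and Gm14742 equal that of Gm28940 at 88, 87 and 86 of 90 positions. The stretch ends the first exon of Gm28940, Gm48754 and Gm14742, after 115, 115 and 113 bases, at the same donor letters, and it straddles the start of the single exon of Gm44739, with the GT of the donor letters after 7 bases. It is not confined to starts, since the last 50 bases of Gm48754 equal the last 50 of its window. The stretch also holds AATAAA, so these 4 RNAs are among the 17 members with that hexamer in the first 1000 bases. At 72 matching positions or more it was present in these 4 of 41 members (9.76%) and in no other, where the best match was 43. It was present in 5.56% of the other Gm-numbered genes and in 0.371% of all genes at 1 CPM or more in *Mtrex*-KO.

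The stretch was also sought in genes outside the list. Of 167 that carry it, tested or not, 9 (5.39%) were called higher in *Nrde2*-KO of the first experiment by limma and 21 (12.6%) in the second, against 0.903% and 0.858% of all 53723 genes searched. The 51 that passed the filter did so in part through libraries in which they are high, so the shares are given over all 167. Many genes of the 2-cell-like state are known to begin in long terminal repeats of an endogenous retrovirus, MERVL, but no repeat annotation was used here, and whether the stretch belongs to such a repeat was not examined. The authors counted uniquely mapped reads, so reads that fall wholly within a repeated stretch may be missing from these counts.

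The 2-cell-like markers moved with these 4 RNAs. Their summed level was 3.11 to 4.11 CPM in *Nrde2* WT and 30.3 to 45.4 CPM in *Nrde2*-KO of the first experiment, and 9.07 to 10.02 CPM and 124 to 140.0 CPM in the second. It was 15.7 to 23.4 CPM in Nrde2d200, 2.61 to 3.87 CPM in Nrde2-D174R and 3.67 to 10.4 CPM in *Ccdc174* WT and dTAG. The sum of trophectoderm markers was between 64.3 and 112 CPM in all groups other than *Mtrex*. Of 6 tested markers of that list, 2, Cdx2 and Gata3, were higher by limma in *Nrde2*-KO in both experiments and under CHX. The list's median log2 fold change was −0.13, −0.02 and −0.10 in these comparisons, and Gata3 was also higher in Nrde2-D174R. Of 6 tested primitive endoderm markers, Gata6 and Dab2 were higher in *Nrde2*-KO in both experiments without CHX. Under CHX, Gata6 and Pdgfra were higher and Foxa2 was lower. The primitive endoderm sum was 13.9 to 14.1 CPM in *Nrde2* WT and 23.4 to 25.3 CPM in *Nrde2*-KO of the first experiment, 9.34 to 10.96 CPM and 16.2 to 19.6 CPM in the second, and 20.503 to 22.499 CPM in Nrde2d200. The part of these markers' cell states in the levels of the 4 RNAs was not tested.

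**Figure D4:**
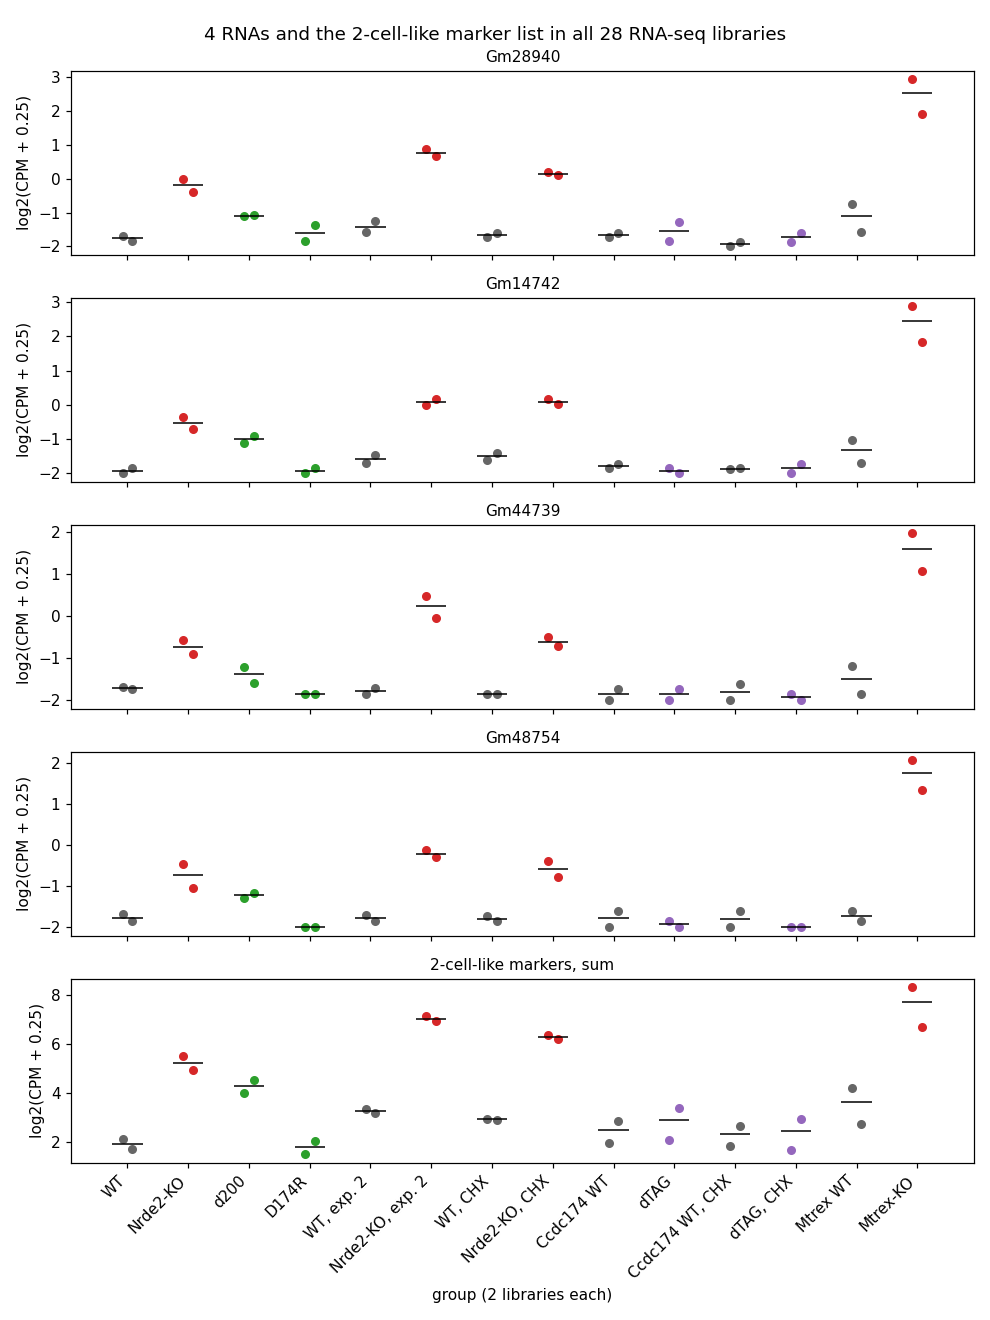
Level as log2(CPM + 0.25) in all 28 RNA-seq libraries (points, 2 per group) for Gm28940, Gm14742, Gm44739, Gm48754 and the summed 2-cell-like markers, each in its own panel with the groups along the horizontal axis. In the 4 gene panels both *Mtrex*-KO points are highest, followed by those of the *Nrde2*-KO groups, and in the marker panel the points of *Mtrex*-KO replicate 2 (104 CPM) and of *Nrde2*-KO of the second experiment (124 to 140.0 CPM) lie close together.

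No member was called in either *Nrde2* mutant, and the filter and the low levels limit these comparisons as they do for *Nrde2*-KO. In Nrde2d200 none of the 42 was called by limma, edgeR or DESeq2, where limma called 1.55% of all genes higher and 0.961% lower. An unadjusted p under 0.05 was reached by 2 members, a threshold at which all genes were not counted. The 4 RNAs with the shared stretch had log2 fold changes of 0.29 to 0.86 on the log2(CPM + 0.25) scale, and Gm28940 measured 0.211 and 0.226 CPM. In reads, the ratio of Nrde2d200 to WT was 5.15 (95% exact interval 1.47 to 27.6) for Gm28940, 17.4 (2.74 to 724) for Gm14742, 4.18 (1.15 to 22.9) for Gm48754 and 2.41 (0.696 to 10.5) for Gm44739, from 1 to 4 reads in WT. In Nrde2-D174R none was called by limma, edgeR or DESeq2, where limma called 0.135% of all genes higher and 0.0645% lower. An unadjusted p under 0.05 was reached by 1 member, again without a count over all genes. The members' median log2 fold change was 0.00. Gm28940 measured 0.026 and 0.137 CPM and Gm48754 had no read in either Nrde2-D174R library.

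*Nrde2*-KO and Nrde2-D174R were also compared directly. Gm14742 was higher in *Nrde2*-KO by 1.29 (SE 0.32, limma adjusted p = 0.00719) and Gm48754 by 1.16 (SE 0.28, limma adjusted p = 0.00607), which is 2 of 42 members (4.76%) against 1.59% of all genes. None was lower by limma, edgeR or DESeq2 or at an unadjusted p under 0.05, against 1.44% of all genes. The filter and the low levels apply as in the comparison with WT, so nothing is read from these shares. Leaving out any 1 of these 4 libraries left 0 or 1 call. This comparison and that with *Nrde2* WT share the *Nrde2*-KO libraries.

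After depletion of CCDC174 none of the 42 members was called by limma, edgeR or DESeq2, and none had an unadjusted p under 0.05 by limma. Of all genes, limma called 0.205% higher and 1.03% lower. At a median of 0.271 CPM in *Ccdc174* WT without CHX, a lower call by limma was out of reach for many members. Over the members, the median log2 fold change was −0.06. In the compared libraries alone 12 of the 42 passed the filter, so for most members a change of a few reads was not detectable at this depth. The difference between the *Nrde2*-KO effect of the second experiment and the dTAG effect was called for none of the 42 by limma, edgeR or DESeq2. Of all genes, 0.492% were called higher and 0.152% lower by limma. At an unadjusted p under 0.05 by limma there were 7 members, and all genes were not counted at that threshold. For the 4 RNAs with the shared stretch the difference was 2.07 (Gm28940, limma adjusted p = 0.0254), 1.98 (Gm44739, limma adjusted p = 0.0191), 1.67 (Gm48754, limma adjusted p = 0.0246) and 1.80 (Gm14742, limma adjusted p = 0.0341), about as large as their *Nrde2*-KO effect and short of the threshold.

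Cycloheximide was used to ask which RNAs are removed in a translation-dependent way. In the *Nrde2* line without 4OHT, 28 members passed the filter and 3 of them (10.7%) were higher with CHX, against 11.5% of 16903 genes, and none was lower by limma, edgeR or DESeq2, with 2 lower at an unadjusted p under 0.05, against 3.0% of all genes called lower. In the *Ccdc174* line without dTAG-13, 4 (14.3%) were higher, against 13.4%, and 1 (3.57%) lower, against 2.73%. These shares lay close to those of all genes, but Gm49767, which was called in both lines, passed the filter through the CHX-treated libraries, in which it is high. Nothing is therefore read from the shares.

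Gm16201, a processed_transcript that overlaps Adam8, a metalloproteinase gene, on the other strand, rose most in the *Nrde2* line. It measured 0.443 and 0.665 CPM without and 4.27 and 3.10 CPM with CHX in the *Nrde2* line, a rise of 2.12 (SE 0.25, limma adjusted p = 4.45e-06), and 0.781 and 1.13 against 3.69 and 2.21 CPM in the *Ccdc174* line, a rise of 1.17 (SE 0.25, limma adjusted p = 0.000911). Gm49767 was called in both lines as well, with rises of 1.47 (SE 0.23, limma adjusted p = 7.01e-05) and 1.21 (SE 0.23, limma adjusted p = 0.000366). With CHX it measured 1.55 and 1.81 CPM in the *Nrde2* line, against 0.388 and 0.360 CPM without. The lines share no library.

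Other members passed the test in a single line. In the *Nrde2* line Gm17233 rose by 1.05 (limma adjusted p = 0.00036), against 0.49 in the *Ccdc174* line (limma adjusted p = 0.0449). In the *Ccdc174* line Gm20632, which shares exon bases with Gm47311 on the same strand, rose by 1.47 (limma adjusted p = 2.04e-05) and Gm17690 by 1.20 (limma adjusted p = 9.13e-05), against 0.87 (limma adjusted p = 0.00208) and 0.88 (limma adjusted p = 0.00136) in the *Nrde2* line. The difference between the lines was not tested. Gm38102, the RNA with the largest *Mtrex* ratio, fell by 1.38 (SE 0.30, limma adjusted p = 0.00104) in the *Ccdc174* line, from 0.625 and 0.804 CPM to 0.173 and 0.128 CPM, and the call was lost without replicate 2 of either group. In the *Nrde2* line its log2 fold change was −0.77 (limma adjusted p = 0.0397).

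**Figure D5:**
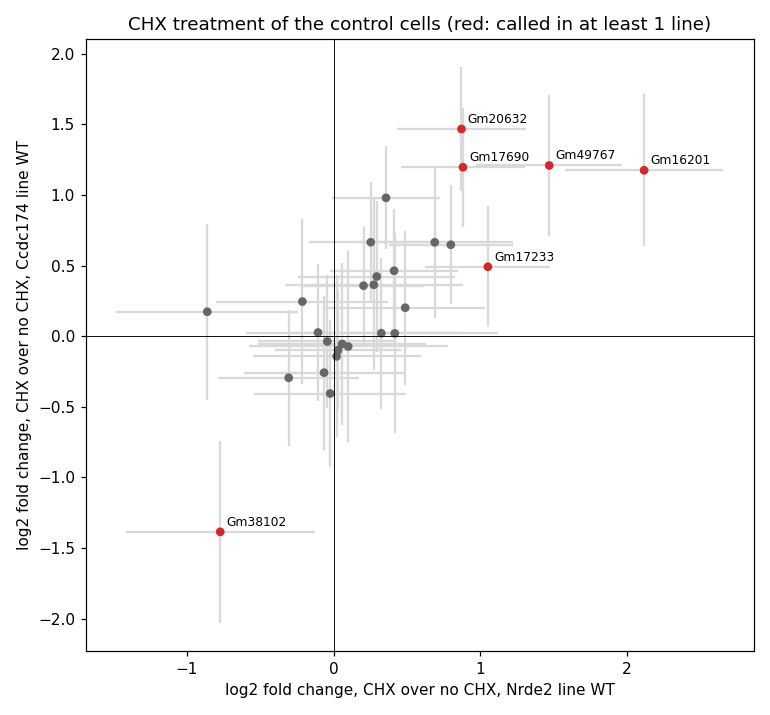
Log2 fold change with CHX over without CHX in WT cells of the *Nrde2* line (horizontal axis) and of the *Ccdc174* line (vertical axis) for the 28 members that passed the filter, with those called in at least 1 line in red. Gm16201 and Gm49767 lie at the upper right and Gm38102 at the lower left.

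Under CHX, *Nrde2*-KO was compared with WT over the 23 members that passed the filter. Of these, 3 (13.0%) were higher by limma, against 3.15% of 16370 genes, and none was lower by limma, edgeR or DESeq2 or at an unadjusted p under 0.05, against 1.88%. Gm28940 and Gm14742 passed the filter through the *Nrde2*-KO libraries, in which they are high, so nothing is read from that share. Gm28940 rose by 1.80 (SE 0.23, limma adjusted p = 0.000131), from 0.052 and 0.078 CPM to 0.894 and 0.824 CPM. Gm14742 rose by 1.57 (SE 0.23, limma adjusted p = 0.000342), from 0.079 and 0.129 CPM to 0.867 and 0.769 CPM. Gm11532, which lacks the shared stretch, rose by 1.06 (SE 0.20, limma adjusted p = 0.00178), from 0.813 and 0.517 CPM to 1.79 and 1.59 CPM. With 1 *Nrde2*-KO library left out the number of calls was 0 or 1, since Gm28940 and Gm14742 then failed the filter and were not tested. The 2-cell-like sum was 7.34 to 7.47 CPM in WT and 73.2 to 81.7 CPM in *Nrde2*-KO under CHX, and its part in these calls was not tested. For dTAG with CHX none of the 23 was called by limma, edgeR or DESeq2, while limma called 0.226% of all genes higher and 0.745% lower. An unadjusted p under 0.05 was reached by 4 members, 3 higher and 1 lower, and all genes were not counted at that threshold.

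In Ribo-seq of *Nrde2* WT and *Nrde2*-KO cells, which counts ribosome-protected fragments, the members were near the counting limit. All 42 together held 122 reads over 4 libraries, out of 3475051 to 5035940 reads in genes per library, and 27 had at least 1 read. Gm15894, antisense to Il34, had the most, 29, at 1.23 and 0.383 CPM in WT and 0.707 and 1.77 CPM in *Nrde2*-KO. Gm16196 had 18 and Gm37305 had 16. Gm15894 and Gm37305 passed the filter, and neither was called by limma, with log2 fold changes of 0.40 (95% interval −0.67 to 1.47) and 0.21 (−0.89 to 1.31), where 3.45% of all 14224 genes were higher and 2.68% lower, and none of the 2 had an unadjusted p under 0.05. Differences smaller than these intervals were not detectable at this depth, and no Ribo-seq library of *Mtrex*-KO cells was analysed here.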

How the data were processed

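RNA-seq was made from rRNA-depleted, stranded total RNA as single-end reads, and Ribo-seq from nuclease footprints. Per the submitters' processing notes and methods, the authors used STAR 2.7.3a on mm10, counted uniquely mapped reads by strand in GENCODE M23 genes with featureCounts, and deposited CPM tables. The deposited CPM steps gave whole reads, which were used for read counts, edgeR and DESeq2 (RNA-seq depth 28683644 to 36272309 reads in genes, 72.1 to 92.1% of the total behind the CPM). Positions and types come from GENCODE M21 on GRCm38, which matched 55154 of 55335 gene IDs, and sequences from the RefSeq copy of GRCm38.

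Tests used limma 3.58.1 in R 4.3.3 on log2(CPM + 0.25), with CPM divided by median-of-ratios factors, for genes at 0.5 CPM or more in at least 2 libraries. All 20 libraries without CHX entered 1 fit, the 8 with CHX another, and the 16 of both CHX experiments the last. Calls needed a Benjamini-Hochberg adjusted p under 0.01 over all genes tested and a log2 fold change beyond 1. The *Mtrex* ratio used CPM as deposited. The code was tested on simulated data. Alternatives were edgeR 4.0.16, DESeq2 1.42.0, other added values, filters and scalings, a replicate block and leaving out each library. Genes named are those called, those at the threshold, and the highest by level or ratio. The members and all gene lists were chosen with earlier results of these data known, and the shared sequence stretch after the responding members were known. Sequence was read for 41 members, the values of 1 head-to-head partner gene are not reported here, and 16 further samples of the series were not used here.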

Additional observations from a re-analysis of the deposited data

How the results depend on the processing

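No call of a member changed direction under any alternative in which the gene was tested: of 232 such refits of the 19 calls, 184 kept the call and 48 lost it. Refits in which the gene failed the filter, as happened for Gm28940 and Gm14742 under CHX, are not in this count. Adding 1 CPM before log2 left 0, 1, 0 and 0 members higher in *Nrde2*-KO of the first experiment (2 in the text), of the second (4), against Nrde2-D174R (2) and under CHX (3), and 1 and 0 higher and 0 lower with CHX in the *Nrde2* and *Ccdc174* lines (3, 4 and 1). A filter on a mean of 0.5 CPM gave 2 in the second experiment, 1 against Nrde2-D174R, 1 under CHX and 0 lower with CHX in the *Ccdc174* line. Without a filter these were 0 in the first experiment, 0 against Nrde2-D174R, 5 under CHX and 2 lower with CHX in the *Ccdc174* line. Fitting only the compared groups gave 1 in the first experiment and 1 against Nrde2-D174R. DESeq2 gave 1 for *Nrde2*-KO under CHX, and CPM as deposited and edgeR each gave 5 higher with CHX in the *Nrde2* line. The cause of these shifts was not tested.

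Leaving out 1 library gave 0 to 1 calls in the first experiment, 3 to 5 in the second, 0 to 1 against Nrde2-D174R, 0 to 3 for *Nrde2*-KO under CHX, 2 to 4 higher and 0 to 1 lower with CHX in the *Nrde2* line, and 2 to 5 higher and 0 to 1 lower in the *Ccdc174* line, where the lowest count, 2, came without replicate 1 of the cells without CHX. For *Nrde2*-KO under CHX it was 0 without *Nrde2*-KO replicate 1 and 1 without replicate 2, where Gm28940 and Gm14742 failed the filter, and in the *Nrde2* line 1 member, in place of 0, was lower without replicate 1 of the cells without CHX.

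Nothing in the labels says that a replicate number marks a shared day or culture, and with 2 replicates a pairing cannot be settled from the data. Same-numbered libraries had correlations of their deviations from −0.03 to 0.29, and a fit with the replicate number as a block gave the same counts, 2, 4, 0, 0, 0, 2, 3 and 0 members higher in the comparisons of genotypes and 3 and 4 with CHX.

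The number of members depends on the scale. It was 103 with 0.1 CPM added, 5 with 1 CPM added, 75 with CPM divided by median-of-ratios factors, 183 at a log2 ratio of 2, and 46 to 55 without 1 *Mtrex* library. Members below about 0.5 CPM rest on few reads, and Ribo-seq held too few for all but 2.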
